A study of Homo sapiens with 18 samples.

Results

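The expression of 10 keratin genes was followed through RNA-Seq and RNAPII ChIP-Seq of MCF10A-Er-Src cells, non-tumorigenic human mammary epithelial cells in which tamoxifen activates an oncogenic v-Src. The members are KRT5, KRT14 and KRT17 (basal keratins), KRT6A, KRT6B and KRT16 (stress keratins), and KRT7, KRT8, KRT18 and KRT19 (simple keratins), chosen by symbol and Entrez identifier, and they are 10 of the 23604 genes listed in at least 1 RNA-Seq library. The RNA-Seq groups were NT, cells without tamoxifen given DMSO, NT+TPL, the same cells given triptolide (TPL), TAM, tamoxifen-transformed cells given DMSO, and TAM+TPL, transformed cells given TPL. Each group had 2 libraries, which the study's methods describe as independent biological replicates, and all groups share a single cell line. The 8 ChIP-Seq samples of the same conditions are represented here by 4 lists of RNAPII peaks, 1 per condition. The labels of both replicates name the same list, and whether it pools them is not clear.

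Keratins form the intermediate filaments of epithelial cells and assemble as pairs of a type II and a type I chain. KRT5 pairs with KRT14 in basal cells, KRT6A and KRT6B pair with KRT16 and KRT17 in activated or wounded epithelium, and KRT8 pairs with KRT18 in simple epithelium, where KRT7 and KRT19 are also found. TPL binds the XPB subunit of TFIIH, the general factor that opens promoter DNA for RNAPII. RNA-Seq of poly-A RNA measures the level of mRNA at harvest, which depends on synthesis and on decay.

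The libraries held between 7461309 and 8349448 expected counts, RSEM's estimate of the reads that came from each gene. Levels are given as FPKM, reads scaled to transcript length and library depth, and both measures are relative within a library, so a loss of mRNA shared by all genes would not be seen. Contrasts are log2 fold changes from edgeR's quasi-likelihood test on rounded expected counts over 16948 genes, with Benjamini-Hochberg adjusted p-values. A gene is called, and is said to have risen or fallen, when its adjusted p is 0.001 or less and its log2 fold change is 1.2 or more in size. An adjusted p of at most 0.05 is also given, as the softer threshold. Across all genes tested the median log2 fold change was 0.09 with TPL in NT cells, 0.05 with TPL in TAM cells, -0.03 between TAM and NT cells given DMSO and -0.02 between them given TPL. Replicate counts differed by more than sampling noise in each group, with a chi-square per gene between 9.93 and 33.1, the highest in NT+TPL. Of 8 epithelial markers other than keratins, 7 or 8 reached 1 FPKM in every group, with sums between 416.5 and 1066.6 FPKM, while the summed fibroblast, endothelial and leukocyte markers reached at most 13.0, 2.78 and 28.7 FPKM. The endothelial marker CDH5 was at 0 in every library. In a bulk culture, fewer cells of a type and less RNA per cell cannot be told apart.

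The 10 keratins together made up 3.59 and 3.52% of the summed FPKM (NT), 2.41 and 1.70% (NT+TPL), 1.43 and 1.42% (TAM) and 0.714 and 0.684% (TAM+TPL). The share was therefore lower in TAM than in NT cells and lower with TPL in both, and the libraries of the groups did not overlap. KRT5, KRT6A and KRT17 held between 81.3 and 87.8% of that sum in every library. In NT cells the order of mean levels was KRT17, KRT5, KRT6A, KRT7, KRT14, KRT18, KRT8, KRT6B, KRT16 and KRT19, and the ranges of the 2 libraries overlapped between KRT17 and KRT5 alone. In TAM cells KRT6A came first, followed by KRT17, KRT5, KRT18, KRT7, KRT14, KRT8, KRT6B, KRT16 and KRT19, with no overlap between neighbours. KRT6A held 50 and 54.5% of the keratin sum in the TAM libraries and 20.1 and 21.7% in the NT libraries. With TPL, the order in NT cells was KRT17, KRT5, KRT6A, KRT7, KRT8, KRT18, KRT14, KRT16, KRT6B and KRT19. In TAM+TPL it was KRT6A, KRT17, KRT5, KRT18, KRT8, KRT14, KRT7, KRT6B, KRT16 and KRT19, again without overlap between neighbours. KRT19 had at most 1.1 expected counts in a library and stood at 0 in 5 of the 8, which lies under a floor of 3 counts. The expression filter of edgeR left it out, so 9 of the 10 members were tested.

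**Figure D1:**
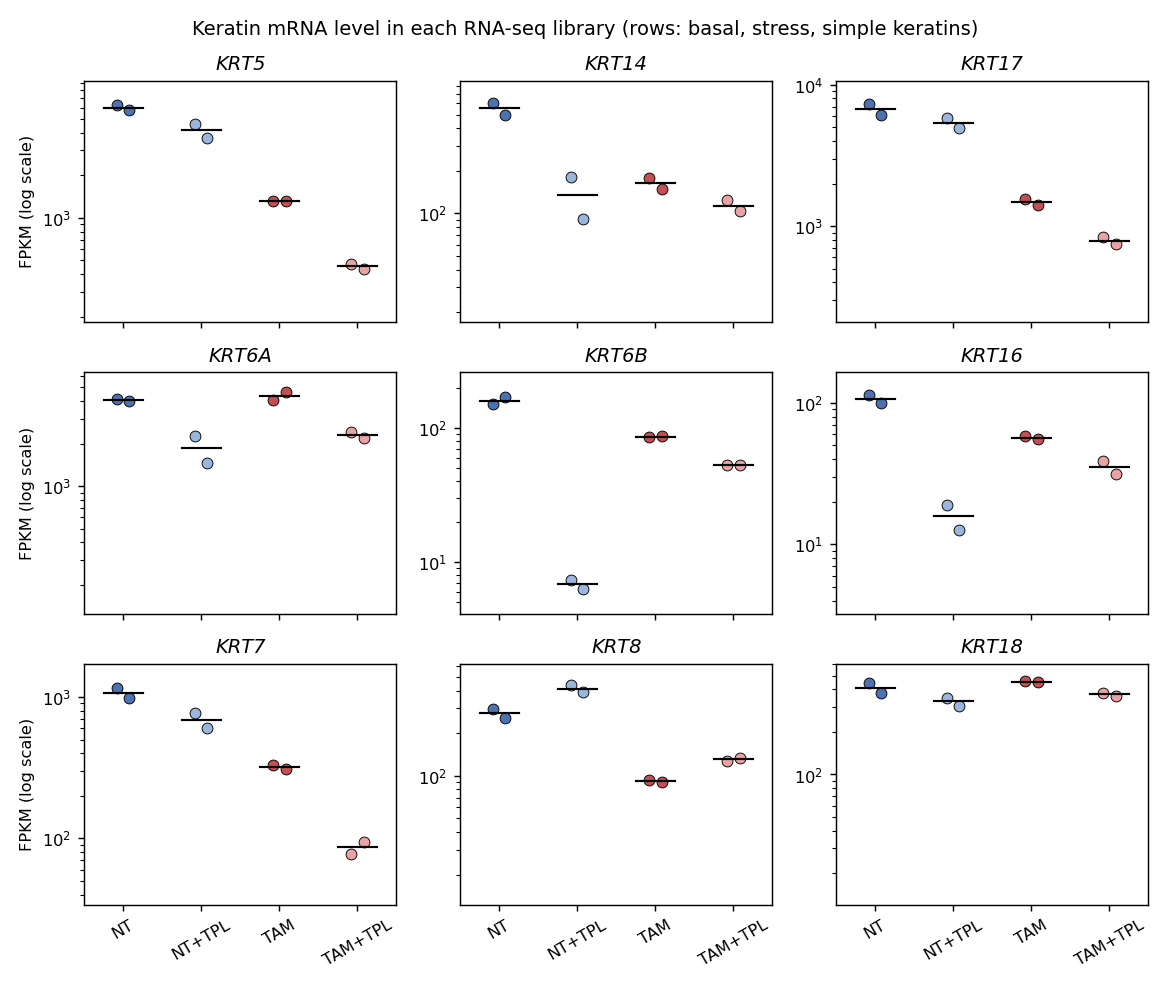
FPKM (log scale, a scale of its own in each panel) of the 9 tested keratins in the 4 groups, with a point for each library and a line at the mean of the 2 libraries. KRT5, KRT17 and KRT7 step down from NT to TAM cells, KRT6B and KRT16 reach their lowest level in NT+TPL, and KRT8 is higher with TPL in both cell states.

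The first comparison asked how the keratins differ between transformed and untransformed cells given DMSO. KRT5 and KRT17 fell in TAM cells, KRT7, KRT8, KRT14, KRT6B and KRT16 were lower at the softer threshold, and KRT6A and KRT18 passed neither threshold. The 2 calls among 9 members compare with 0.277% of all genes called lower and 0.378% called higher, and the 7 members lower at an adjusted p of at most 0.05 compare with 3.39% of all genes lower and 3.46% higher. The median log2 fold change of the 9 members was -1.50.

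KRT5, the type II chain of basal cells, had 6249.6 and 5776.1 FPKM in the NT libraries and 1308.4 and 1307.9 in the TAM libraries. Its log2 fold change was -2.18 ± 0.14 (SE, edgeR, adjusted p = 0.000366), a 4.54-fold lower level. KRT17, a type I chain of basal and activated epithelium, had 7283.7 and 6144.1 FPKM in NT and 1553.6 and 1407.5 in TAM. The fall of KRT17 was -2.16 ± 0.15 on the log2 scale (edgeR, adjusted p = 0.000505). Both genes were the most abundant keratins of NT cells and had lower values in both TAM libraries than in either NT library. This held for 7 of the 9 members and for 29.8% of 15424 tested genes with an Entrez identifier. The opposite held for 24.8% of them.

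KRT14, the type I partner of KRT5, had 603.9 and 499.6 FPKM in NT and 178.7 and 148.2 in TAM. Its log2 fold change of -1.74 ± 0.30 had an adjusted p of 0.0176 by edgeR, so it was lower at the softer threshold and not called. Among the stress keratins, KRT6B had 150.8 and 169.7 FPKM in NT and 85.1 and 87.3 in TAM (log2 fold change -0.88 ± 0.12, edgeR, adjusted p = 0.00823). KRT16 had 113.2 and 100.3 FPKM in NT and 58.3 and 55.2 in TAM, a log2 fold change of -0.89 ± 0.19 with an adjusted p of 0.0411 by edgeR. KRT6A, in contrast, had 4101.4 and 3969.4 FPKM in NT and 4062.5 and 4623.3 in TAM, and these ranges overlapped. Its log2 fold change was 0.12, with a 95% interval from -0.33 to 0.58.

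Among the simple keratins, KRT7 had 1153.9 and 976.8 FPKM in NT and 328.3 and 311.4 in TAM (log2 fold change -1.72 ± 0.17, edgeR, adjusted p = 0.00178). KRT8 had 297.5 and 254.7 FPKM in NT and 93.0 and 89.8 in TAM (log2 fold change -1.50 ± 0.13, edgeR, adjusted p = 0.00125). Both were past the size of 1.2 and missed the 0.001 threshold. KRT18, the type I partner of KRT8, had 443.3 and 377.1 FPKM in NT and 457.1 and 450.3 in TAM, a log2 fold change of 0.16 with a 95% interval from -0.15 to 0.47. KRT8 was thus lower in TAM cells while its partner was not detectably so.

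The calls of KRT5 and KRT17 were kept when either NT+TPL library was left out and lost when any of the other 6 was, with log2 fold changes between -2.29 and -2.04. Calls over all genes dropped in those 6 fits as well. The 7 members lower at the softer threshold became 4 without NT replicate 2, without TAM replicate 1 or without TAM replicate 2, and 5 without NT replicate 1 or without either TAM+TPL library. Scaling to GAPDH turned the values of KRT6A and KRT18 to -0.35 and -0.30 in this comparison. GAPDH itself had a log2 fold change of 0.46 (adjusted p = 0.117).

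**Figure D2:**
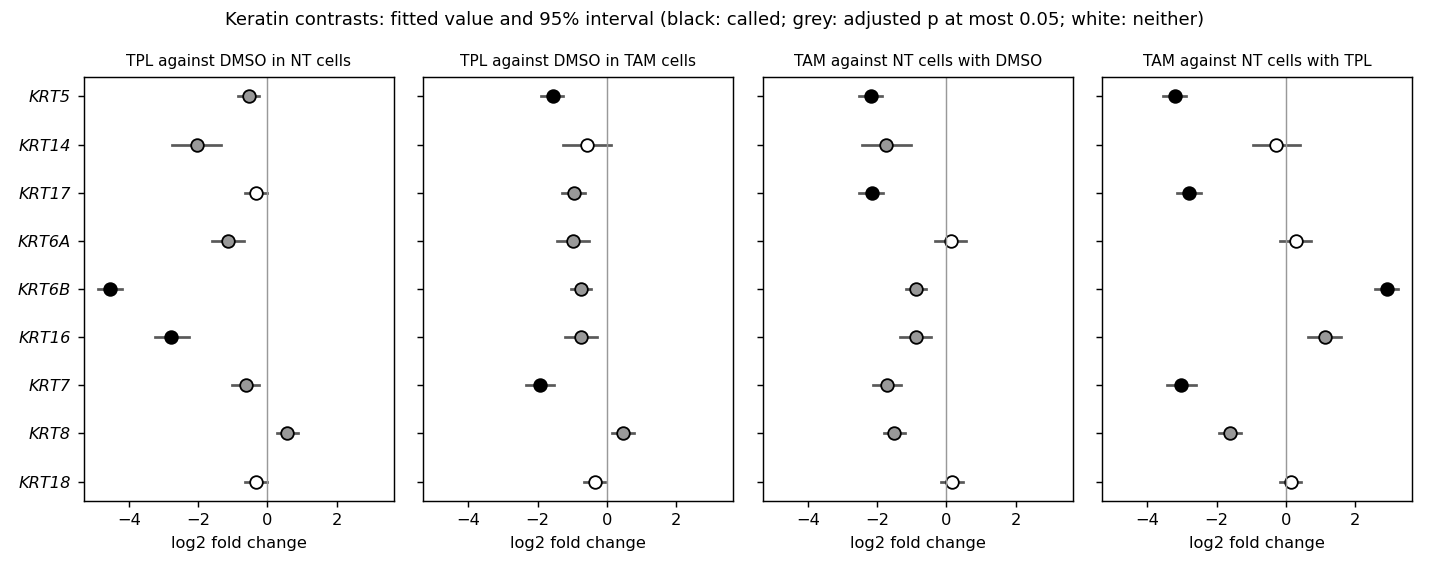
Fitted log2 fold changes of the 9 tested keratins with 95% intervals, in 4 contrasts. Black points are called, grey points have an adjusted p of at most 0.05 only, and white points pass neither threshold, with KRT6B ranging from -4.56 (TPL in NT cells) to 2.92 (TAM against NT cells with TPL).

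The second comparison asked how TPL changed keratin mRNA in untransformed cells. KRT6B and KRT16 fell, by -4.56 and -2.77 on the log2 scale. KRT14, KRT6A, KRT7 and KRT5 were lower at the softer threshold, KRT8 was higher, and KRT17 and KRT18 passed neither threshold. Of all genes, 2.71% were called lower and 1.22% higher in this comparison, and 19.8% were lower and 17.2% higher at an adjusted p of at most 0.05, beside 6 members lower and 1 higher of 9. The median of the members was -0.63.

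KRT6B, one of the 2 KRT6 chains of activated epithelium among the members, had 150.8 and 169.7 FPKM in NT and 7.36 and 6.30 in NT+TPL. This was a 23.6-fold lower level (SE of the log2 value 0.15, edgeR, adjusted p = 0.000163), from 2862.5 and 3215.7 expected counts to 132.1 and 111.6. KRT16, the type I stress keratin, had 113.2 and 100.3 FPKM in NT and 19.0 and 12.7 in NT+TPL, a 6.80-fold lower level (SE 0.21, edgeR, adjusted p = 0.000342). KRT6B ranked 421 and 340 by FPKM among all genes in the NT libraries and 6363 and 6724 in the NT+TPL libraries. KRT6A, whose transcript resembles that of KRT6B, had 4101.4 and 3969.4 FPKM in NT and 2265.1 and 1449.8 in NT+TPL, a log2 fold change of -1.13 ± 0.19 (edgeR, adjusted p = 0.00531).

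The remaining members moved less or with more spread. KRT14 had 603.9 and 499.6 FPKM in NT and 180.8 and 91.2 in NT+TPL, a log2 fold change of -2.04 ± 0.30 (edgeR, adjusted p = 0.00303). The 2 NT+TPL values of KRT14 differ by about the size of the lower one, the widest relative spread of a tested member in that group. KRT7 went from 1153.9 and 976.8 to 774.2 and 608.2 FPKM (log2 fold change -0.63, edgeR, adjusted p = 0.0229), and KRT5 from 6249.6 and 5776.1 to 4629.7 and 3677.2 (-0.54, edgeR, adjusted p = 0.0185). KRT17 had 5805.1 and 4946.6 FPKM in NT+TPL, with a log2 fold change of -0.33 and an adjusted p of 0.108 by edgeR. KRT18 had 350.2 and 306.3 FPKM, with a log2 fold change of -0.33 and an adjusted p of 0.0891 by edgeR. KRT8 alone was higher, at 439.6 and 387.9 FPKM against 297.5 and 254.7, a log2 fold change of 0.57 ± 0.13 (edgeR, adjusted p = 0.0147).

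All 9 tested members were lower in the second NT+TPL library than in the first, where 54.5% of all genes were, and the part of the libraries in these values was not tested. The call of KRT6B was kept without either NT+TPL library and lost without any of the other 6 libraries. Over all left-out libraries its log2 fold change lay between -4.65 and -4.47. Calls over all genes were lost in those 6 fits as well. The call of KRT16 was kept without NT+TPL replicate 1 alone, at log2 fold changes between -3.04 and -2.52 and adjusted p-values up to 0.00311. The 6 lower members at the softer threshold became 4 without NT replicate 1 or without NT+TPL replicate 2, and KRT8 was not higher without NT replicate 2.

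The third comparison asked the same of transformed cells. KRT7 and KRT5 fell with TPL in TAM cells, by -1.93 and -1.57 on the log2 scale. KRT17, KRT6A, KRT6B and KRT16 were lower at the softer threshold, KRT8 was higher, and KRT14 and KRT18 passed neither threshold. Here 2.04% of all genes were called lower and 0.844% higher, and 18.6% were lower and 14.3% higher at an adjusted p of at most 0.05, beside 6 members lower and 1 higher of 9. The median of the members was -0.76.

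KRT7 had 328.3 and 311.4 FPKM in TAM and 78.1 and 95 in TAM+TPL, a 3.82-fold lower level (SE of the log2 value 0.17, edgeR, adjusted p = 0.000573). KRT5 had 1308.4 and 1307.9 FPKM in TAM and 475.1 and 434.0 in TAM+TPL, a 2.98-fold lower level (SE 0.13, edgeR, adjusted p = 0.000531). KRT17 had 1553.6 and 1407.5 FPKM in TAM and 830.9 and 742.4 in TAM+TPL (log2 fold change -0.96 ± 0.14, edgeR, adjusted p = 0.0034). These 3 abundant keratins were among the 8 of 9 members that were lower in TAM+TPL without overlap of the libraries. Of 15424 tested genes with an Entrez identifier, 36.1% were lower and 41.2% higher without overlap.

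Among the stress keratins, KRT6A had 2400.4 and 2189.7 FPKM in TAM+TPL (log2 fold change -0.97 ± 0.19, edgeR, adjusted p = 0.0104). KRT6B had 85.1 and 87.3 FPKM in TAM and 52.8 and 52.6 in TAM+TPL (-0.76 ± 0.12, edgeR, adjusted p = 0.00503). KRT16 had 38.6 and 31.3 FPKM in TAM+TPL (-0.75 ± 0.20, edgeR, adjusted p = 0.027). In NT cells the TPL values of these genes were -1.13 (KRT6A), -4.56 (KRT6B) and -2.77 (KRT16), so KRT6A was similar in the 2 states. The basal keratin KRT14 also had a lower value in NT cells, at -2.04 against -0.57 in TAM cells. KRT14 had 123.8 and 103.6 FPKM in TAM+TPL (-0.57, edgeR, adjusted p = 0.172), and KRT18 had 376.7 and 360.1 (-0.35, edgeR, adjusted p = 0.0816). KRT8 had 127.5 and 134.2 FPKM in TAM+TPL against 93.0 and 89.8 in TAM (0.47 ± 0.13, edgeR, adjusted p = 0.0326).

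Both calls were kept when either NT+TPL library was left out and lost when any of the other 6 was, as were calls over all genes. The log2 fold changes over left-out libraries were -2.07 to -1.8 for KRT7 and -1.64 to -1.5 for KRT5. Upper quartile scaling also ended both calls, at log2 fold changes of -1.70 and -1.33. Without TAM replicate 2, or without either TAM+TPL library, 4 members were lower at the softer threshold and KRT8 was not higher, and without TAM replicate 1 there were 5 and KRT8 was again not higher.

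The difference between the TPL effects of the 2 cell states was tested directly, as an interaction. KRT6B differed, with a fall of 23.6-fold in NT cells against a 1.69-fold lower level in TAM cells, an interaction of 3.80 ± 0.19 on the log2 scale (edgeR, adjusted p = 0.0029). It did not reach the 0.001 threshold, at which 0% of all genes were called, and was the only member among the 0.165% of genes with an adjusted p of at most 0.05. DESeq2 called 3 of the 9 members, beside 130 called among all genes with an Entrez identifier. For the interaction of KRT16 the value was 2.02, with a 95% interval from 1.35 to 2.68 and an adjusted p of 0.0641 by edgeR. KRT5 (-1.03, adjusted p = 0.131) and KRT7 (-1.3, adjusted p = 0.131) had the larger TPL effect in TAM cells, and neither passed the test of the difference. KRT14 had an interaction of 1.47 (adjusted p = 0.294), KRT17 one of -0.63 (adjusted p = 0.347), KRT6A 0.17, KRT8 -0.10 and KRT18 -0.02. The interaction of KRT6B had an adjusted p of 0.0522 without TAM replicate 1, and between 0.0147 and 0.0489 without any other library.

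**Figure D3:**
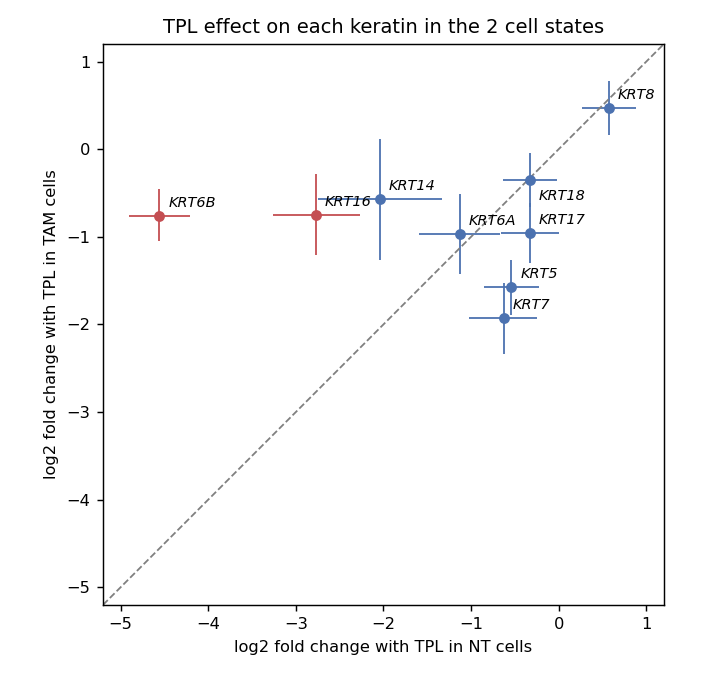
Log2 fold change with TPL in NT cells (x axis) against that in TAM cells (y axis) for the 9 tested keratins, with 95% intervals. The 2 axes share no library, the dashed line marks equal effects, and KRT6B and KRT16 (red) lie left of it at -4.56 and -2.77 in NT cells against -0.76 and -0.75 in TAM cells. KRT14 lies left of it as well, at -2.04 against -0.57.

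Comparing TAM with NT cells under TPL gave KRT5 (-3.21 ± 0.14, edgeR, adjusted p = 8.48e-05), KRT7 (-3.02 ± 0.18, adjusted p = 0.000236) and KRT17 (-2.80 ± 0.15, adjusted p = 0.000173) as lower, and KRT6B as higher (2.92 ± 0.14, adjusted p = 0.000109). In this comparison 0.236% of all genes were called lower and 0.36% higher. KRT8 was lower (-1.60, edgeR, adjusted p = 0.00106) and KRT16 higher (1.12, adjusted p = 0.0215) at the softer threshold, which 4.21% of all genes passed as lower and 2.83% as higher. This contrast uses the same TPL libraries as the comparisons within each state, so it restates their values and is no separate evidence. The call of KRT7 was lost without either NT library and all 4 calls were lost without any of the TAM or TAM+TPL libraries. Calls over all genes dropped in the same fits. KRT14 had -0.27, which became 0.29 without NT+TPL replicate 1.

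The counts of near-identical genes depend on how the reads were divided. KRT6C, another KRT6 gene that is not a member, lies between KRT6A and KRT6B on chromosome 12. Of the 50-base words in the canonical transcripts, 46.6% of those of KRT6B and 39.2% of those of KRT6A also occur in transcripts of another gene, most often KRT6C. KRT6C had 5.45 and 5.12 FPKM (NT), 0.97 and 0.61 (NT+TPL), 44.2 and 43.0 (TAM) and 31.6 and 25.3 (TAM+TPL). It rose in TAM against NT cells with DMSO (3.06 ± 0.20, edgeR, adjusted p = 0.0004) and fell with TPL in NT cells (-2.71 ± 0.24, edgeR, adjusted p = 0.000525). The ratio of KRT6B to KRT6A was 0.0368 and 0.0428 (NT), 0.00325 and 0.00435 (NT+TPL), 0.0210 and 0.0189 (TAM) and 0.0220 and 0.0240 (TAM+TPL). When the counts of the 3 genes were summed, the sum followed KRT6A, with -1.18 with TPL in NT cells (edgeR, adjusted p = 0.00446), -0.96 in TAM cells (adjusted p = 0.0105) and an interaction of 0.22 (adjusted p = 0.811). KRT6A had 81866.2 and 79100.9 expected counts in NT, beside 2862.5 and 3215.7 for KRT6B. The sum therefore had to follow KRT6A and cannot show whether reads of KRT6B were misassigned. KRT8 and KRT18 share 39.2 and 36.7% of their words with other genes, pseudogenes KRT8P3 and KRT18P11 first among them, KRT14 and KRT16 share 24.2 and 21.8%, KRT17 shares 17.4%, and KRT5, KRT7 and KRT19 share at most 4.52%. Read assignment therefore leaves an uncertainty in the values of KRT6A, KRT6B, KRT8, KRT18, KRT14, KRT16 and KRT17. Its size was not measured.

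Because keratins assemble from a type II and a type I chain, the FPKM of partners were set side by side, with no test since 2 libraries against 2 cannot give an exact permutation p under 0.333. The KRT8 to KRT18 ratio was 0.671 and 0.675 (NT), 1.26 and 1.27 (NT+TPL), 0.203 and 0.200 (TAM) and 0.338 and 0.373 (TAM+TPL). It was thus higher with TPL and lower in TAM cells, without overlap of any groups. The KRT5 to KRT14 ratio was 10.3 and 11.6 (NT), 25.6 and 40.3 (NT+TPL), 7.32 and 8.82 (TAM) and 3.84 and 4.19 (TAM+TPL), so that TPL libraries lay above DMSO libraries in NT cells and below them in TAM cells. The KRT6A to KRT16 ratio was 36.2 and 39.6 (NT), 119.4 and 114.3 (NT+TPL), 69.6 and 83.7 (TAM) and 62.1 and 69.9 (TAM+TPL). Over all members, type II exceeded type I mRNA in every library, with ratios of 1.42 and 1.57 (NT), 1.28 and 1.14 (NT+TPL), 2.61 and 3.11 (TAM) and 2.29 and 2.35 (TAM+TPL).

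**Figure D4:**
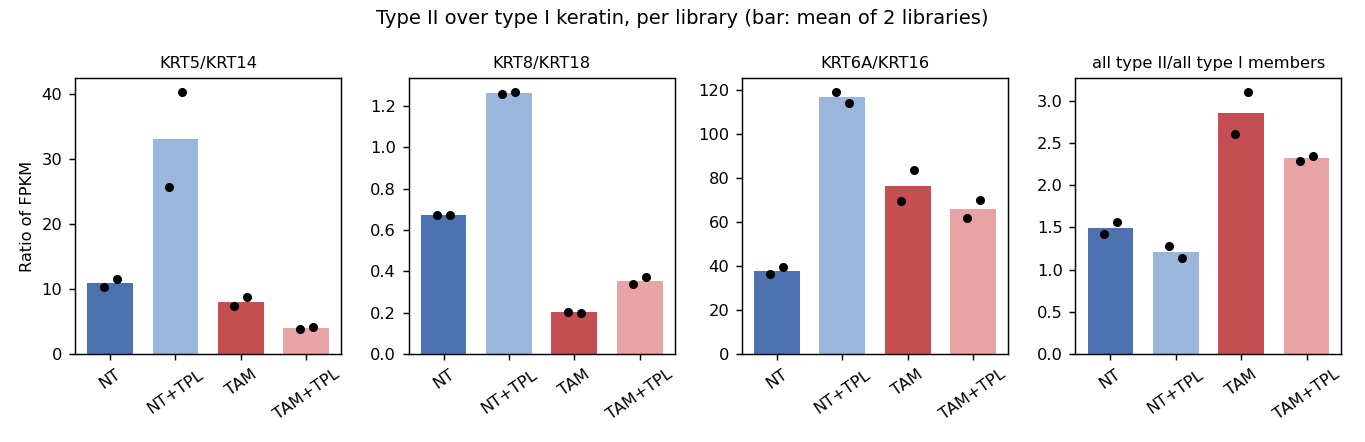
Ratio of the FPKM of a type II keratin to that of a type I keratin in each library (points) with the mean of the 2 libraries (bars from 0). KRT8/KRT18 exceeds 1 in NT+TPL alone, and KRT5/KRT14 is highest in NT+TPL and lowest in TAM+TPL.

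The RNAPII lists show where peaks covered the keratin start sites. A list gives the start and end of each peak and no height, and 1 list per condition leaves no replicate error. The peak names carry a cutoff of 0.02 in the NT, NT+TPL and TAM+TPL lists and a q of 0.1 in the TAM list, so the TAM list was made at another threshold, whose part in the differences below was not tested. The start sites (TSS) are those of the Ensembl canonical transcripts in GENCODE 44 on hg19. Of 10 keratin TSSs, a listed peak held 7 under NT, 4 under NT+TPL, 7 under TAM and 3 under TAM+TPL. Of 19812 protein-coding TSSs, the share in a peak was 47.9% under NT, 38.3% under NT+TPL, 42.2% under TAM and 37.5% under TAM+TPL. Of the TSSs in a peak in NT, 22.9% were in none in NT+TPL, and of those in TAM, 19.1% were in none in TAM+TPL. Among the keratins these were 3 of 7 in NT cells (KRT17, KRT6A and KRT6B) and 4 of 7 in TAM cells (KRT5, KRT17, KRT6B and KRT7).

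KRT5 on chromosome 12 had a peak at chr12:52906371-52914634 in NT, which spans the whole transcript and 456 bases upstream of its TSS. In NT+TPL the peak was 506 bases wide, at chr12:52913880-52914385, in TAM it was 7878 bases wide, and in TAM+TPL the nearest listed peak was 26971 bases away, at KRT6A. KRT7 had a peak of 27366 bases in NT, at chr12:52624236-52651601, and 5 of the 11222 peaks of that list, itself included, were at least as wide. It had a peak of 181 bases in NT+TPL, one of 4188 bases in TAM and none in TAM+TPL. A further listed TAM peak of 12748 bases begins inside the gene, at chr12:52635935-52648682, so the TAM signal was listed in pieces. KRT17 on chromosome 17 had peaks of 7080 bases in NT, at chr17:39773894-39780973, and 6898 bases in TAM, and none with TPL in either state.

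KRT6A had a peak of 8108 bases in NT, at chr12:52879337-52887444, none in NT+TPL, one of 11344 bases in TAM and one of 344 bases in TAM+TPL. KRT6B had peaks of 526 bases in NT, at chr12:52845441-52845966, and 761 bases in TAM, and none with TPL. With DMSO the KRT8 peak was 369 bases wide in NT and 350 in TAM cells, and with TPL 321 and 328. KRT18 had peaks of 2184 and 1283 bases with DMSO and of 538 and 1128 bases with TPL, in the same order. These 2 simple keratins were the members with a listed peak in all 4 conditions. KRT14, KRT16 and KRT19 had no peak over their TSS in any list, although KRT14 and KRT16 mRNA was measured in every library. The nearest to KRT14 in NT was a peak of 518 bases inside the gene, whose nearer edge lies 989 bases from the TSS. No listed peak over a keratin TSS held the TSS of another protein-coding gene.

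All 4 keratins with a peak in both NT and NT+TPL had a narrower one in NT+TPL, as had 62.9% of the 7313 coding TSSs with a peak in both lists, where the median width was 767 bases in NT and 655 in NT+TPL. In TAM cells all 3 keratins with both peaks had a narrower one with TPL, as had 44.7% of 6762 TSSs. In NT cells the members that lost a listed peak with TPL had log2 fold changes of -4.56 (KRT6B), -1.13 (KRT6A) and -0.33 (KRT17). Those that kept one had -0.63 (KRT7), -0.54 (KRT5), -0.33 (KRT18) and 0.57 (KRT8). In TAM cells the values were -1.93 (KRT7), -1.57 (KRT5), -0.96 (KRT17) and -0.76 (KRT6B) where the peak was lost. They were -0.97 (KRT6A), -0.35 (KRT18) and 0.47 (KRT8) where it was kept. KRT14 and KRT16 had no listed peak over the TSS to lose. A relation between peak loss and mRNA change was not tested.

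**Figure D5:**
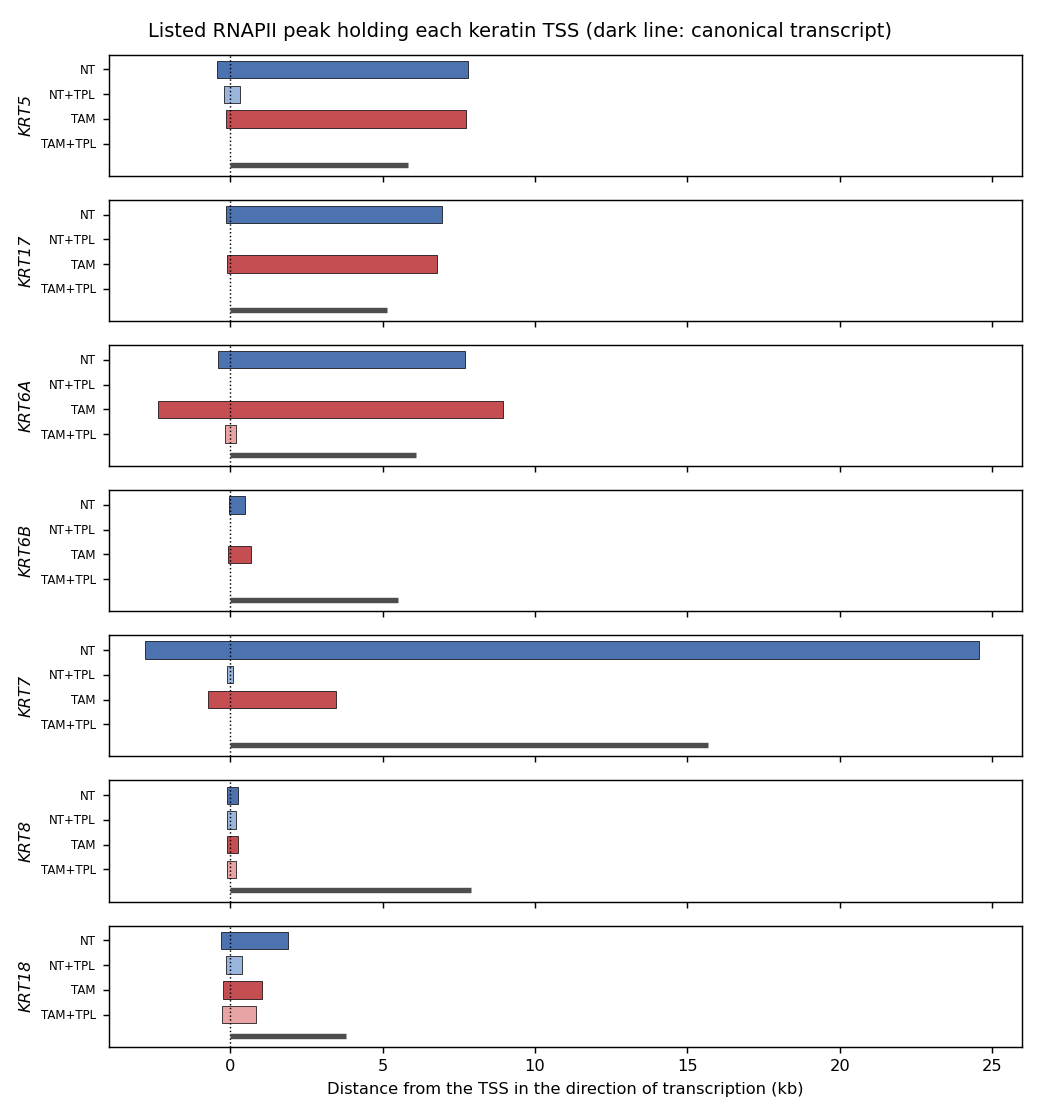
Extent of the listed RNAPII peak that holds the TSS of each of 7 keratins, in kb from the TSS along the direction of transcription, with a bar for each condition (no bar where no listed peak holds the TSS) and the canonical transcript as a dark line. Wide peaks over KRT5, KRT17, KRT6A and KRT7 with DMSO are narrow or missing with TPL, and KRT8 has a peak of 321 to 369 bases in all 4 conditions.

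Genes that work with keratins were taken from lists of known members. At the softer threshold 19.8% of all genes were lower and 17.2% higher with TPL in NT cells. In TAM cells given TPL these shares were 18.6% and 14.3%. Between TAM and NT cells with DMSO they were 3.39% and 3.46%. Of 44 other keratins, 11 were tested, of which 6 were lower with TPL among NT cells and 4 among TAM cells at the softer threshold, and 5 were lower and 1 higher in TAM against NT cells with DMSO. KRT81, a hair keratin on chromosome 12, had 39462.1 and 33121.0 expected counts (NT), 15265.6 and 8464.2 (NT+TPL), 1292.5 and 1166.9 (TAM) and 570.6 and 645.7 (TAM+TPL), and fell in TAM against NT cells with DMSO (-4.91 ± 0.28, edgeR, adjusted p = 0.000243). KRT81 was named after its values were seen. KRT15, a basal keratin, had log2 fold changes of -4.97 in TAM against NT cells with DMSO (edgeR, adjusted p = 0.00131) and -0.17 with TPL in NT cells (adjusted p = 0.725). KRT13 had 53.7 and 79.6 expected counts in NT and 1.07 and 3.0 in TAM (edgeR, adjusted p = 0.0332), and KRT34 had 63.0 and 84.0 in NT and 2.0 and 0.0 in NT+TPL (edgeR, adjusted p = 0.00175), too few for a fold. KRT86 was lower in TAM against NT cells with DMSO (-4.63, edgeR, adjusted p = 0.0141), with 342.9 and 296.8 expected counts in NT and 11.5 and 14.7 in TAM. Transcript sequence shared between KRT86 and KRT81 was not measured, so their values may not be separate. KRT80 had an adjusted p of at least 0.351 by edgeR in every contrast.

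Of 16 desmosome and plakin genes, which anchor keratin filaments at cell junctions, 14 were tested. With TPL in NT cells 6 were lower and none higher at an adjusted p of at most 0.05, with a median log2 fold change of -0.82. In TAM cells 6 were lower and 1 higher, with a median of -0.54. Of all genes, 19.8% were lower and 17.2% higher in NT cells, and 18.6% and 14.3% in TAM cells. PKP2, a desmosomal plaque protein, fell in NT cells (-1.88, edgeR, adjusted p = 0.00032), as did PLEC, the linker plectin (-1.80, edgeR, adjusted p = 0.000623). PPL, periplakin, was lower in TAM against NT cells with DMSO (-2.73, edgeR, adjusted p = 0.00337), as was EVPL, envoplakin (-1.34, edgeR, adjusted p = 0.0298). Of 13 regulators of epithelial identity, 12 were tested, and 9 were lower in NT cells given TPL and 8 in TAM cells. These counts stand beside the same 19.8% and 18.6% of all genes. The medians of the regulators were -2.57 and -1.64. TP63, a regulator of basal keratinocytes, fell in both states (-5.31 and -5.04, edgeR, adjusted p = 0.000439 and 0.000491), with 13.2 and 23.6 FPKM in NT against 0.64 and 0.28 in NT+TPL. ESRP2, an epithelial splicing factor, fell in both as well (-4.06 and -3.73, edgeR, adjusted p = 0.000238 and 0.000343). GRHL3 fell with TPL in NT cells (-5.42, edgeR, adjusted p = 0.000961), and OVOL1 was lower in TAM against NT cells with DMSO (-5.19, edgeR, adjusted p = 0.0105). The lower group held few expected counts in both cases. GRHL3 had 22.0 and 4.0 in NT+TPL, and OVOL1 6.0 and 5.0 in TAM, so the sizes of these folds are uncertain.

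Of 14 cornified envelope genes, 9 were tested, and with TPL in NT cells 3 were lower and 2 higher at the softer threshold. Of all genes, 19.8% were lower and 17.2% higher in that comparison. TGM1, a transglutaminase that crosslinks the envelope, fell in NT cells with TPL (-4.61, edgeR, adjusted p = 0.0006), SPRR2D was lower (-4.49, edgeR, adjusted p = 0.00643), and CSTA was higher (0.65, edgeR, adjusted p = 0.0279). SPRR2D had 246.8 and 249.5 expected counts in NT and 18.9 and 2.0 in NT+TPL, so the size of its fold is uncertain. Of 14 other intermediate filament genes, 7 were tested, with 3 lower and 3 higher with TPL in NT cells, the nuclear lamin LMNB2 falling (-1.68, edgeR, adjusted p = 0.000524) and LMNA higher (1.07, edgeR, adjusted p = 0.002). Of the 8 epithelial markers other than keratins, CLDN4, a tight junction claudin, was lower with TPL in NT cells (-4.57, edgeR, adjusted p = 0.00741) and ITGB4, the integrin of hemidesmosomes, was higher (0.72, edgeR, adjusted p = 0.019). CLDN4 had only 21.0 and 3.0 expected counts in NT+TPL, so the size of its fold is uncertain. The reference gene ACTB was lower with TPL in both states (-1.42 and -1, edgeR, adjusted p = 0.00105 and 0.0041). Among markers of other cells, ITGAM was between 0.02 and 0.05 FPKM in the DMSO libraries and between 5.2 and 9.82 in the TPL libraries, and its part in the keratin values was not tested.

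The genes most like KRT17 and KRT7 were found by the root mean square difference of centred log2(FPKM + 1) over the 8 libraries, among 5351 non-member genes with a mean of at least 10 FPKM. For KRT17, which had the highest FPKM of the basal and stress keratins averaged over all 8 libraries (3589.2, although KRT6A was higher in TAM and TAM+TPL), they were TRIM29 (0.214), TGFBI (0.26) and PDLIM2 (0.266), and KRT5 was the nearest member at 0.26. For KRT7, which had the highest such average of the simple keratins (540.7, although KRT18 was higher in TAM and TAM+TPL and KRT8 in TAM+TPL), the nearest were PTGES (0.341) and PDLIM2 (0.385), with KRT5 at 0.238 and KRT17 at 0.382. KRT6B stood farthest from both, at 2.23 from KRT17 and 2.16 from KRT7.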

How the data were processed

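RNA-Seq of poly-A RNA covered 8 libraries, 2 in each of NT, NT+TPL, TAM and TAM+TPL, and groups were taken from the sample labels. The titles abbreviate the transformed groups as T and TT, which were read as TAM and TAM+TPL with the help of the study's paper. The authors aligned reads to reference genes with Bowtie2 and estimated expression with RSEM, and deposited expected counts and FPKM values per gene. Both are relative to the library, and no spike-in is stated. Libraries held 7461309 to 8349448 expected counts, and with 2 libraries a group the precision is limited mainly by the spread between them. RNAPII peaks were called by the authors with MACS 1.4.2 on hg19 and deposited as starts and ends, which carry no height.

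The deposited expected counts were rounded and fitted with edgeR 4.0.16 (R 4.3.3) in a 4-group quasi-likelihood model with TMM scaling and edgeR's expression filter, which kept 16948 genes, and p-values were adjusted by the Benjamini-Hochberg method over all of them. The script was tested on simulated data. FPKM were used for levels and ratios, and for limma 3.58.1 on log2(FPKM + 1) as an alternative. DESeq2 1.42.0, other scalings, filters and thresholds, 2-group fits, a replicate block and each library left out were the other alternatives. TSSs and transcripts came from GENCODE 44 on GRCh37. Some genes and sequences are not reported here. Named genes outside the members were at most 4 per list, past an adjusted p of 0.05 and with a mean of at least 1 FPKM, by size of fold change, together with KRT6C, KRT15, KRT13, KRT80, GAPDH and ACTB.

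The members and gene lists were chosen with earlier results of these data known.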

Additional observations from a re-analysis of the deposited data

Results flagged for a closer look

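The TPL effect on KRT6B differed between the cell states, by 3.80 on the log2 scale (95% interval 3.36 to 4.24, edgeR, adjusted p = 0.0029). It was lower with TPL in 2 of 2 libraries in each state, at 7.36 and 6.30 FPKM in NT+TPL against 150.8 and 169.7 in NT, and at 52.8 and 52.6 in TAM+TPL against 85.1 and 87.3 in TAM. KRT6B shares 46.6% of its 50-base words with other genes, and the difference over the summed counts of KRT6A, KRT6B and KRT6C was 0.22 (edgeR, adjusted p = 0.811). KRT6A holds most of those counts, so the sum cannot speak to the KRT6B value. The part of read assignment in the KRT6B value was not tested. No group had the 4 libraries that a search for single outlying samples needs.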

How the results depend on the processing

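Of 881 log2 fold changes of single keratins under an alternative, 767 kept their direction and side of the threshold, 75 kept the direction and lost the call, 24 gained one and 15 changed sign. Most of the 881 belong to values that were not called to begin with and so could not lose a call. The main fit called 2, 2, 2, 4 and 0 of the 9 tested members in the 5 contrasts. The counts of called keratins moved most. With TPL in NT cells the 2 calls became 7 at an adjusted p of 0.05 with no minimum fold, 4 with GAPDH as the reference, 0 with the 2 groups alone, 1 with the KRT6 genes summed, and 0 to 2 with a library left out. In TAM cells the 2 calls stayed 2 at an adjusted p of 0.05 with the same fold and became 7 with no minimum fold. They became 0 with upper quartile scaling, 1 with the 2 groups alone, 1 with limma at either pseudocount, and fewer in most fits with a library left out. For TAM against NT cells with DMSO the 2 calls became 5 at an adjusted p of 0.05 with the same fold, 7 with no fold, 4 with GAPDH, 4 with at least 10 counts in every library, 1 with the 2 groups alone, 5 with DESeq2, and 0 to 2 with a library left out. With TPL the 4 calls became 0 with the 2 groups alone and 0 to 4 with a library left out. The interaction went from 0 to 1 at an adjusted p of 0.05 with or without the fold, 1 with at least 10 counts and 3 with DESeq2. Calls over all genes with an Entrez identifier moved as well. With the 2 groups alone they went from 655 to 0 for TPL in NT cells and from 481 to 267 in TAM cells. For TAM against NT cells they then went from 110 to 58 with DMSO and from 99 to 0 with TPL. With GAPDH they were 654 for TPL in NT cells and 108 for TAM against NT cells with DMSO. Upper quartile scaling gave 400 in TAM cells. They also dropped in most fits with a library left out. The cause was not tested.

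Replicate numbers did not pair the samples, with correlations of same-numbered deviations between -0.135 and 0.0501. With a replicate block the calls were 0, 0 and 0 in the first 3 of these contrasts, 3 for TAM against NT cells with TPL and 0 for the interaction, while the numbers of keratins at an adjusted p of 0.05 were as without it. Over all genes with an Entrez identifier the calls were 0, 0, 37, 30 and 0 in the same order.

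The range over left-out libraries was -0.64 to 0.29 for KRT14 between TAM and NT cells given TPL, and for the interaction -0.10 to 0.49 for KRT6A, -0.21 to 0.00 for KRT8 and -0.14 to 0.10 for KRT18. The signs that turned belonged to values whose adjusted p exceeded 0.05. With GAPDH as the reference, KRT6A and KRT18 had -0.35 and -0.30 for TAM against NT cells with DMSO, KRT18 -0.09 with TPL, and the interactions of KRT8 and KRT18 were 0.13 and 0.21. The KRT18 interaction was also 0.02 by library size, 0.00 by upper quartile and 0.02 with limma, 0.10 without NT replicate 2, 0.05 without NT+TPL replicate 1 and 0.02 without TAM+TPL replicate 2. Without NT+TPL replicate 1 KRT14 had 0.29 for TAM against NT cells with TPL, without NT+TPL replicate 2 the KRT6A interaction was -0.10, and without NT replicate 2 that of KRT8 was 0.00. Upper quartile scaling put the median of all genes at 0.30 and 0.29 with TPL in NT and TAM cells, and GAPDH put it at -0.27 and -0.07, and at -0.50 and -0.25 for TAM against NT cells with DMSO and TPL. From expected counts, which are not per length, the type II to type I ratio was 2.19 (NT), 1.76 (NT+TPL), 4.39 (TAM) and 3.58 (TAM+TPL), against mean ratios of 1.49, 1.21, 2.86 and 2.32 from FPKM. The numbers of keratins with a listed peak were the same with any annotated TSS of the gene. With a peak within 1000 bases of the TSS the NT number went from 7 to 8, and with a peak reaching at least 100 bases to both sides it went from 7 to 6 in NT, 4 to 3 in NT+TPL and 7 to 6 in TAM.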

Other observations

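The mean transcript length that RSEM assigned to KRT8, a weighting over its annotated transcripts, was 1825.07 and 1837.66 bases (NT), 1833.55 and 1827.27 (NT+TPL), 1933.43 and 1931.45 (TAM) and 1911.84 and 1955.84 (TAM+TPL). The TAM and TAM+TPL values were above all NT and NT+TPL values. This was noticed in the data, was not tested, and no cause was examined.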
